A study of Mus musculus with 18 samples.

Results

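The genes described here are 10 markers of blood vessel lining, out of 18193 named genes on the arrays. Of these, 4 mark the sinusoids of the liver (Lyve1, Stab2, Clec4g and Fcgr2b) and 6 mark endothelium in general (Esam, Cdh5, Pecam1, Kdr, Tek and Eng). They were chosen by symbol. Each gene was read from the probe set, annotated to that gene alone, with the highest mean over all 18 arrays. Male C57BL6 mice received an intraperitoneal injection of saline or of 4.5 g per kg D-(+)-galactosamine hydrochloride (GalN), an amino sugar that injures hepatocytes. Sham mice had saline and were killed at 24 h; GalN mice were killed at 24 h or at 48 h. Each of the 6 groups of organ and time has 3 arrays, lettered A, B and C. All organs were perfused with saline buffer and an RNA preservative before RNA was taken from pieces of whole tissue. No sham organs were taken at 48 h, so a comparison of 48 h with sham also compares times after injection. No age was given, and all mice were male.

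Liver sinusoids are lined by a specialised endothelium with open pores and no continuous basement membrane, which takes up waste molecules from blood through scavenger receptors. Stab2, Lyve1 and Fcgr2b take part in that clearance, and Clec4g is a lectin of the same cells. The pan-endothelial genes build junctions between endothelial cells (Cdh5, Pecam1, Esam) or receive growth signals (Kdr for VEGF, Tek for angiopoietins, Eng for BMP9 and TGF-beta). In whole tissue, fewer cells of a type and less RNA per cell cannot be told apart. Several of these genes are also made elsewhere: Lyve1 in lymphatic vessels and some macrophages, Fcgr2b in B cells and macrophages, and Pecam1 in platelets.

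The values are log2 gcRMA expression values. The 18 array medians lay between 2.36 and 2.43, near the lowest value of the table, 2.21. Arrays of 1 group correlated over all genes with at least r = 0.983. The liver array 48 h C differed from the other liver arrays in the control sets that report RNA integrity: its actin 3' set read 2.56 above the 5' set, against 1.48 to 1.95 in the other livers. Its Gapdh gap was 0.81, above every other liver array. The arrays were taken as single animals from their letters, although wording in the labels could be read as pooled RNA, and p-values then measure only the spread between these samples. An array has no read depth, and 3 arrays a group limit the precision. Hepatocyte markers were higher in liver (list means 15.2 to 15.7 per array) than in kidney (7.91 to 8.55). All 6 hepatocyte markers were called higher in sham liver, and all 5 proximal tubule, 5 distal nephron and 3 podocyte markers higher in sham kidney. All 10 endothelial genes passed the filter on low values in both organs. This filter kept a gene above the array median in at least 3 arrays. It kept 12062 genes in liver and 11990 in kidney. Passing it does not show expression. Clec4g lay less than 1 above the lowest value of the table in all kidneys, as did Lyve1 in the sham kidneys.

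The sequence just upstream of a gene is where endothelial factors of the ETS, GATA and MAF families can bind, so the upstream windows of the markers are shown where the reference had them. RefSeq (GRCm38.p6) gave promoter entries for 6 of the 10 genes. In 4 of them the window held at least 100 bases outside the transcript: Stab2 at chr10:87008039-87008192 (minus strand), Clec4g at chr8:3720696-3720901 (minus strand), Fcgr2b at chr1:170976072-170976321 (minus strand) and Eng at chr2:32646345-32646594 (plus strand). Each sequence reads 5' to 3' along the gene's own strand, and the windows of Stab2 and Clec4g stop 96 and 44 bases short of the start site. Capitals mark matches to AGGAAG, a core of ETS sites, or to its reverse complement CTTCCT.
Stab2: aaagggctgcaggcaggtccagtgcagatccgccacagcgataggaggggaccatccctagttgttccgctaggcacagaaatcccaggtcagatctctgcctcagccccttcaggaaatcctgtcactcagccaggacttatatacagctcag
Clec4g: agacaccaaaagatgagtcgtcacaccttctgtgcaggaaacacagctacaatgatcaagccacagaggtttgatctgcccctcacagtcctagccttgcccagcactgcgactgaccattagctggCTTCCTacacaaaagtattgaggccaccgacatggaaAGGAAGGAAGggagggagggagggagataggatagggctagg
Fcgr2b: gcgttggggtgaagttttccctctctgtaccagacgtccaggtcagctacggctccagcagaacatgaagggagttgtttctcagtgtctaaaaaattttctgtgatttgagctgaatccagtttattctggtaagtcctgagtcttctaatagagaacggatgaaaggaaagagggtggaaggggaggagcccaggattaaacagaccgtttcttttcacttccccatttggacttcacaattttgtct
Eng: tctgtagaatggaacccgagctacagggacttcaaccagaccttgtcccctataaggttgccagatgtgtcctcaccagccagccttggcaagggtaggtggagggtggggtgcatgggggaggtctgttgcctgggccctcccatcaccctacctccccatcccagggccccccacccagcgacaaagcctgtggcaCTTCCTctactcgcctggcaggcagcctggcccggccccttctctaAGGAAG
Clec4g held 3 matches, of which 2 share bases in a run of the same strand, and Eng held 2. The windows of Stab2 and Fcgr2b held none, which says only that these letters are not in these bases. Among all 32851 promoters of the table, AGGAAG on either strand occurred in 18.6% of windows of 154 bases (the Stab2 length), 24.5% of windows of 206 bases (Clec4g) and 29.5% of windows of 250 bases (Fcgr2b and Eng). AGATAA is a core of GATA sites and TGCTGA a half-site of MAF factors. Neither was found on either strand of the 4 windows. In all promoters, AGATAA occurred in 6.72%, 8.65% and 9.99% of windows of those 3 lengths, and TGCTGA in 9.85%, 13.5% and 16.1%. A match is a description of letters, not of binding.

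The comparison of sham organs asks which of these genes separate liver from kidney before injury. The sinusoidal genes Clec4g, Stab2 and Lyve1 were higher in liver, whereas Fcgr2b was higher in kidney. No pan-endothelial gene was higher in liver, and Pecam1, Tek and Esam were higher in kidney. Over all genes, 19.6% were called higher in liver and 30.0% lower (49.6% in either direction) by limma with Benjamini-Hochberg adjusted p under 0.05, from a fit of all 18 arrays. Called members were therefore 3 of 10 in the first direction and 4 of 10 in the second.

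Clec4g read 9.78, 9.59 and 9.35 in the sham livers A, B and C and 2.31, 2.83 and 2.57 in the sham kidneys. Every kidney reading lay less than 1 above the lowest value of the table, so its difference of 7.0 (SE 0.22, adjusted p = 1.07e-12) stands for a level at least 128-fold higher in liver. Stab2, a scavenger receptor for hyaluronan, read 8.35, 8.46 and 8.25 in sham liver and 4.64, 5.07 and 3.02 in sham kidney. Its level was at least 17.3-fold higher in liver (difference 4.11, SE 0.54, adjusted p = 1.65e-05), a bound because kidney array C was also at background. Lyve1, a hyaluronan receptor, read 4.08, 4.25 and 6.20 in sham liver, where array C stood well above A and B, and 2.68, 2.93 and 2.59 in sham kidney. The groups did not overlap, and Lyve1 was at least 4.32-fold higher in liver (difference 2.11, SE 0.60, adjusted p = 0.00905). Without liver sham C the call was just lost (adjusted p = 0.0501, range over its alternatives 0.00185 to 0.0501). The second Lyve1 probe set was not called (difference 0.78, adjusted p = 0.154).

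Fcgr2b, an inhibitory Fc receptor, read 9.63, 9.65 and 9.22 in sham liver and 10.41, 10.27 and 10.54 in sham kidney, so all kidney arrays were above all liver arrays (difference -0.91, SE 0.25, adjusted p = 0.00657). Each of its other 3 measurable probe sets was also called lower in liver, by -0.96 to -1.85. With each array centred on its median the chosen set was not called (adjusted p = 0.0595, range over its alternatives 0.000182 to 0.0595). That scaling moved the median difference of all genes from -0.07 to 0.27 and the share of called genes that were higher in liver from 39.5% to 62.7%.

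Among the pan-endothelial genes, Pecam1 was at 1 identical reading of 3.38 in all 3 sham livers and at 6.03, 5.77 and 6.33 in sham kidney. It was 6.35-fold higher in kidney (difference -2.67, SE 0.38, adjusted p = 3.70e-05). Whether the shared liver reading is background is not known. Tek, the angiopoietin receptor, read 7.39, 7.25 and 6.76 in sham liver and 9.04, 9.10 and 9.41 in sham kidney, a 4.14-fold higher level in kidney (adjusted p = 3.24e-06). Esam, a junction protein, was 3.31-fold higher in kidney (adjusted p = 6.48e-05). Kdr (-0.67, adjusted p = 0.101), Eng (-0.63, adjusted p = 0.106) and Cdh5 (-0.31, adjusted p = 0.469) were not called. Of these, Kdr and Eng were separated between the organs without overlap. Among all genes tested, 37.3% were separated in that direction. The second Eng probe set was called lower in liver (-1.30, adjusted p = 0.000111).

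**Figure D1:**
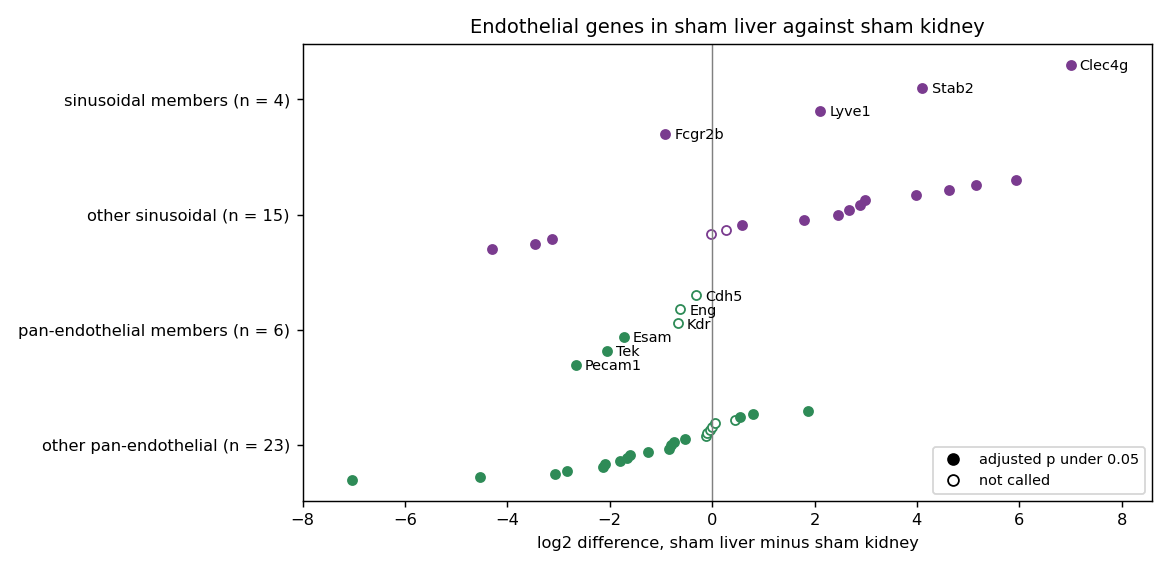
Log2 difference between sham liver and sham kidney (horizontal axis, n = 3 arrays each) for the 4 sinusoidal and 6 pan-endothelial genes, named, and for other genes of both kinds, 1 point per gene; filled points have an adjusted p under 0.05. Clec4g, Stab2 and Lyve1 lie right of 0 at 7.0, 4.11 and 2.11, while Fcgr2b and all 6 pan-endothelial genes lie left of 0.

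Other genes of both kinds were read beside the members. Of 15 other sinusoidal genes tested, 10 were higher in sham liver and 3 were lower, with a median difference of 2.45. Bmp2, a BMP ligand that controls iron through hepatocytes, was higher by 5.94 and Mrc1, the mannose receptor, by 5.15. The lectin receptor gene Clec1b was higher by 4.62. The transcription factor Tfec was lower in liver by -4.31. Of 23 other pan-endothelial genes tested, 3 were higher in liver and 14 lower (5 and 10 with either quantile normalization or median centring), with a median difference of -0.79. Emcn, a sialomucin of capillaries and veins, was lower by -7.04 and Cd34, a surface sialomucin, by -4.54. The SOX factor gene Sox17 was lower by -3.08 and Cd93 by -2.84. Of 22 ligands and partners of the receptors, 1 was higher in sham liver and 12 lower, with Angpt1, the Tek ligand, lower by -4.24. Macrophage markers were higher in sham liver in 9 of 10 genes tested and lower in 0. Their list mean was 7.42 to 8.46 per sham liver array and 4.62 to 4.69 per sham kidney array. The part of macrophages in the differences of Lyve1, Stab2, Mrc1, Clec1b and Fcgr2b was not tested.

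In liver 24 h after GalN, 7 of the 10 genes were higher than in sham and none was lower. Over all genes tested, 17.9% were called higher and 32.9% in either direction (limma, 9 liver arrays, Benjamini-Hochberg adjusted p under 0.05). Lyve1 rose the furthest, 16.3-fold. Fcgr2b and Esam rose 2.75-fold and 2.64-fold, Tek and Clec4g 1.97-fold and 1.92-fold, and Pecam1 and Cdh5 3.40-fold and 2.42-fold. All sham readings of Pecam1 and some of Cdh5 were shared exactly between arrays. Kdr, Eng and Stab2 were not called. In 9 of 10 genes every 24 h array lay above every sham array, which held for 27.3% of all genes tested, and Stab2 was the exception. The rank product test called Lyve1 alone, among 4.96% of all genes.

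**Figure D2:**
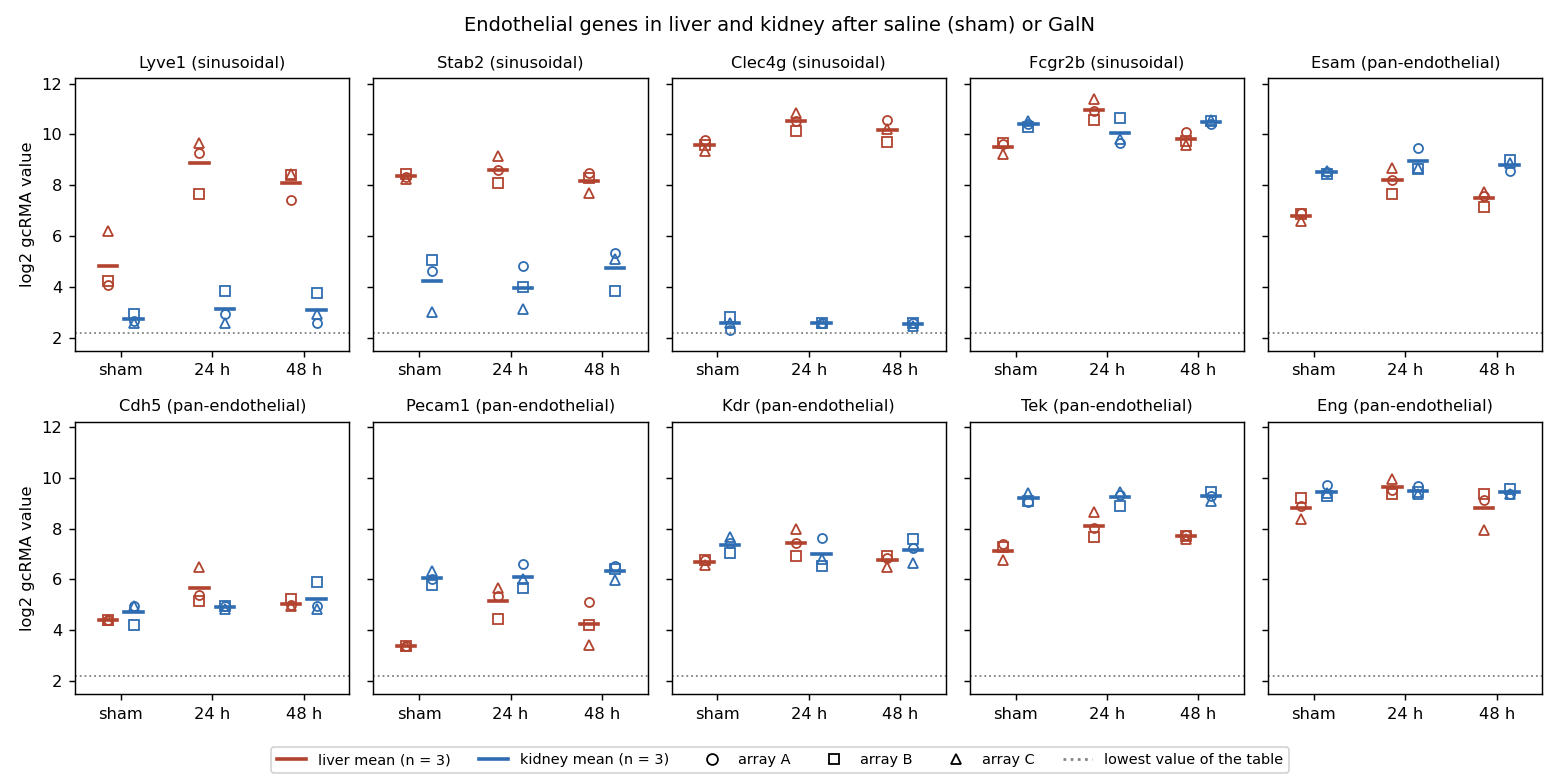
Log2 gcRMA values (vertical axis) of the 10 genes in sham, 24 h and 48 h arrays, with 1 symbol per array (A, B, C), a bar at each group mean, liver in red and kidney in blue. The dotted line is the lowest value of the table, 2.21. In liver, 9 of the 10 genes show 24 h arrays that all lie above the sham arrays, while in kidney only Esam does.

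Among the sinusoidal genes at 24 h, Lyve1 read 9.28, 7.67 and 9.66, against 4.08, 4.25 and 6.20 in sham. The groups were far apart, and the change was 4.02 (SE 0.73, adjusted p = 0.00581). It was called in every fit that left out 1 array. The second Lyve1 probe set changed by 4.47 (adjusted p = 0.00178). Fcgr2b read 10.92, 10.56 and 11.40 at 24 h and rose by 1.46 (SE 0.25, adjusted p = 0.00418), also in every fit without 1 array. All 4 of its measurable probe sets were called higher, by 1.02 to 1.46. Clec4g read 10.54, 10.15 and 10.86 at 24 h and rose by 0.94 (SE 0.27, adjusted p = 0.0322). Its call was lost without any single sham array, without 24 h A or C, with no filter (adjusted p = 0.0576) and with median centring (adjusted p = 0.0666). Stab2 read 8.62, 8.10 and 9.14, and array B lay below all sham arrays. The change of 0.27 had a 95% interval of -0.43 to 0.97 (adjusted p = 0.543), so a rise like that of Lyve1 or Fcgr2b lies outside the interval for Stab2, while one like that of Clec4g does not.

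Among the pan-endothelial genes at 24 h, Esam read 8.22, 7.67 and 8.70 against 6.90, 6.88 and 6.59 in sham. It rose by 1.40 (SE 0.28, adjusted p = 0.00866) and was called in every fit without 1 array. Pecam1, an adhesion molecule of endothelial junctions, read 5.33, 4.44 and 5.66 against the identical sham reading of 3.38 (change 1.77, SE 0.45, adjusted p = 0.0222). Cdh5, the adherens junction cadherin of endothelium, read 5.39, 5.14 and 6.47 against 4.41, 4.39 and 4.39 (change 1.27, SE 0.32, adjusted p = 0.0201). Tek read 8.04, 7.66 and 8.64 against 7.39, 7.25 and 6.76 (change 0.98, SE 0.27, adjusted p = 0.0298). These 3 calls rested on single arrays: without sham A, B or C the Cdh5 call was lost, as it was with only the 6 arrays compared (adjusted p = 0.0515), and without those sham arrays or 24 h A or C the Pecam1 call. The Tek call was lost without sham B or C and without 24 h A or C. It was also lost with no filter (adjusted p = 0.0517), quantile normalization (0.0540), only the 6 arrays compared (0.0686) and the array letter as a block (0.0718), with a range of 0.00337 to 0.0867 over all its alternatives.

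Kdr, the main VEGF receptor, read 7.44, 6.91 and 7.96 at 24 h against 6.76, 6.75 and 6.56, and its change of 0.75 (95% interval 0.13 to 1.37) had an adjusted p of 0.0681. Eng, a co-receptor for BMP9, read 9.52, 9.35 and 9.97 against 8.90, 9.19 and 8.38 (change 0.79, adjusted p = 0.178). Its second probe set was called higher (0.71, adjusted p = 0.0408). For both genes the arrays did not overlap, and the miss of the threshold does not show that they were unchanged.

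All 10 genes ranked the 24 h livers in the same order, with B lowest and C highest. Over all genes tested 14.4% had that order, and 23.3% of the genes called higher. Among other marker lists the order held for 8 of 16 other sinusoidal, 12 of 22 other pan-endothelial and 7 of 12 macrophage genes. The mean change of the 4 sinusoidal genes from the sham mean was 1.77, 1.05 and 2.20 in arrays A, B and C, and that of the 6 pan-endothelial genes 1.12, 0.66 and 1.70. In every 24 h array the sinusoidal mean was the larger, by 0.65, 0.39 and 0.50. That direction turned without Lyve1: the other 3 sinusoidal genes changed by 0.89 on average, against 1.16 for the pan-endothelial genes. The kinds overlapped gene by gene, with changes of 0.27 to 4.02 for sinusoidal and 0.75 to 1.77 for pan-endothelial genes.

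**Figure D3:**
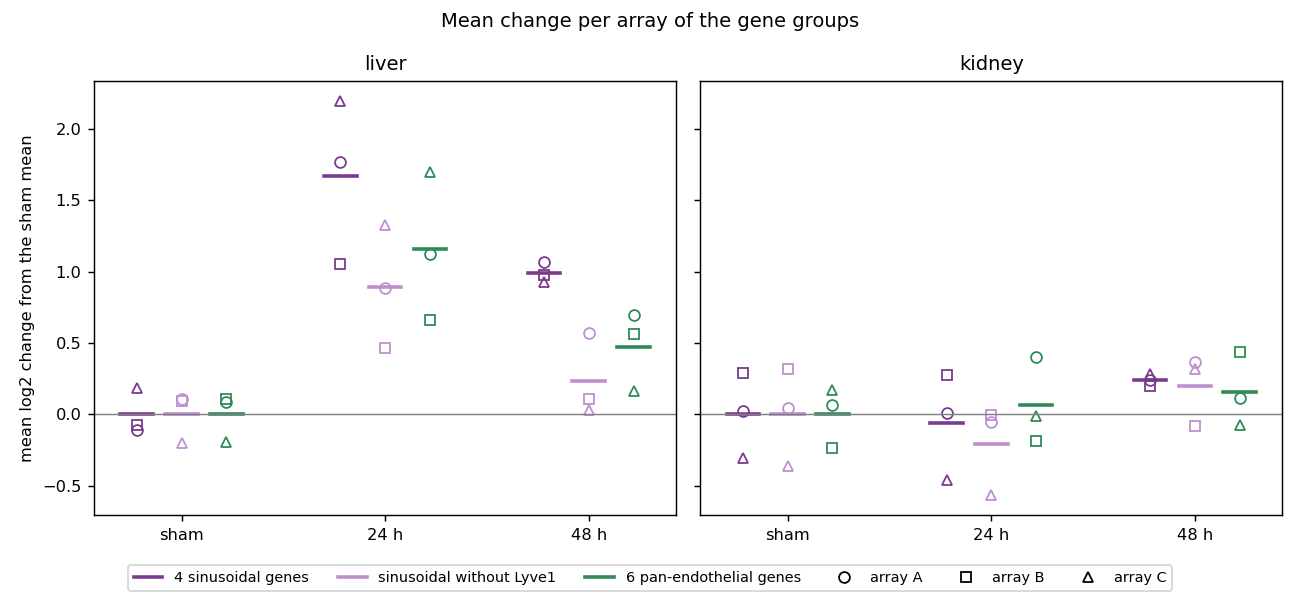
Mean log2 change from the sham mean (vertical axis) per array for the 4 sinusoidal genes, the same without Lyve1, and the 6 pan-endothelial genes, in liver and kidney, with bars at the group means (n = 3). In the 24 h livers the means are 1.67, 0.89 and 1.16, and leaving out Lyve1 places the sinusoidal bar below the pan-endothelial bar.

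Other sinusoidal genes at 24 h in liver had 8 of 16 called higher and 0 lower, with a median change of 1.01 beside 0.01 over all genes tested. Clec1b rose 3.33-fold and Gpr182, an atypical chemokine receptor of these cells, 2.48-fold. Flt4, a VEGF-C receptor, rose 2.33-fold and F8, coagulation factor VIII, 2.20-fold. The count was 3 without sham A or C and with no filter, and 4 without sham B, 24 h A or 24 h C and with the letter block. Of 22 other pan-endothelial genes, 7 were called higher and 1 lower, with a median change of 0.68. Cd93 rose 8.44-fold, Emcn 3.48-fold, Mmrn2 2.83-fold and the SOX factor gene Sox18 2.34-fold. The gene called lower was S1pr1, a sphingosine-1-phosphate receptor (-1.17, adjusted p = 0.0238), which is named outside the rule for named genes, after its value was seen. Its call was lost in 5 of the 6 fits without 1 of the sham or 24 h arrays, sham C being the exception.

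Of 22 genes for ligands, receptors and targets of the VEGF, angiopoietin and BMP/TGF-beta pathways, 5 were called higher at 24 h and 0 lower (3 without sham A, sham B or 24 h A). Id1 and Id3, which BMP signals induce, rose 8.27-fold and 5.29-fold. The receptor gene Tgfbr2 rose 3.41-fold and Smad1, which carries BMP signals, 2.39-fold. Of 6 activation genes tested, 3 were called higher: the leukocyte adhesion molecule genes Icam1 (13.4-fold) and Vcam1 (2.55-fold) and Thbd, an anticoagulant receptor (4.39-fold). That count was 1 without sham C or 24 h C. Of 3 hyaluronan genes tested, Cd44 alone was called higher (2.19-fold), and that call was lost without sham A or B or any single 24 h array.

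Markers of other cells moved with the 24 h livers. Of 12 macrophage markers, 6 were called higher and 0 lower, among them Marco (13.8-fold), Cd68 (8.55-fold), C1qb (2.84-fold) and Cd5l (2.44-fold). The macrophage list mean was 7.42 to 8.46 in sham, 9.15 to 9.45 at 24 h and 8.81 to 9.21 at 48 h. Of 6 stellate and fibroblast markers, Pdgfrb (3.74-fold) and Lrat (3.57-fold) were called higher, a count of 0 without sham A, 24 h B or 24 h C and of 1 without sham B or C. Of 6 hepatocyte markers Tat was called lower (adjusted p = 0.0500, just under the threshold), a call lost without any single sham array, 24 h A or C, or 48 h A or B. The hepatocyte list mean was 15.6 to 15.7 in sham and 15.3 to 15.5 at 24 h. The B cell markers Cd79a and Ms4a1 and the platelet markers Itga2b, Gp9 and Ppbp were at the floor in every liver group, and the B cell marker Cd79b at 24 h and 48 h but not in sham. The only platelet marker tested was Pf4, named after its values were seen, which read 0.91 above sham at 24 h and 1.61 above at 48 h without being called (adjusted p = 0.297 and 0.146). Of 3 genes of the lymphatic list none was called at 24 h (list mean 6.89 to 7.14 in sham and 6.92 to 7.08 at 24 h). The list mean was 3.86 to 4.05 in sham kidney. Whether these genes report lymphatic vessels in liver was not tested. The part of macrophages, stellate cells, hepatocytes or platelets in the rises of Lyve1, Fcgr2b, Pecam1, Clec1b and the other genes was not tested.

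At 48 h in liver, Lyve1 was the only gene of the 10 called against sham, where 6.25% of all genes were called higher and 10.2% in either direction. These comparisons use the same sham arrays as those at 24 h. Lyve1 read 7.41, 8.41 and 8.45 at 48 h, above all sham arrays, and was 9.48-fold higher (change 3.24, SE 0.73, adjusted p = 0.0358). Its second probe set rose by 3.26 (adjusted p = 0.0210). The rank product test also called Lyve1 alone at 48 h, among 2.44% of all genes. The call of the chosen set was lost without sham A, sham B, 24 h A, 48 h A, 48 h B or 48 h C (adjusted p = 0.0542 to 0.121), with no filter and with only the 6 arrays compared, and its adjusted p ranged from 0.00173 to 0.121 over its alternatives. Without 48 h C, the array with the wide actin gap, the change was 3.06 (adjusted p = 0.0725).

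The arrays of Esam, Cdh5, Pecam1 and Tek at 48 h also lay above all sham arrays, as did those of 17.7% of all genes, without reaching the threshold. Esam read 7.60, 7.15 and 7.75 (change 0.71, adjusted p = 0.169). Tek read 7.75, 7.72 and 7.60 (change 0.55, adjusted p = 0.257), Cdh5 4.99, 5.22 and 4.95 (0.65, adjusted p = 0.254) and Pecam1 5.10, 4.22 and 3.44 (0.87, adjusted p = 0.281). Cdh5 was called with only the 6 arrays compared (adjusted p = 0.0292) and in the fit without 24 h C (adjusted p = 0.0223). Clec4g read 10.55, 9.70 and 10.23 (change 0.59, adjusted p = 0.226) and Fcgr2b 10.09, 9.76 and 9.59 (change 0.31, adjusted p = 0.483), both overlapping sham. Stab2 read 8.48, 8.30 and 7.71 (-0.19, 95% interval -0.89 to 0.51). Kdr had a change of 0.06, which turned to -0.09 with quantile normalization and -0.08 with median centring. Eng read 9.10, 9.37 and 7.95, with array C lowest (-0.01, or 0.41 without 48 h C), and its second probe set read higher (0.77, adjusted p = 0.0725).

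**Figure D4:**
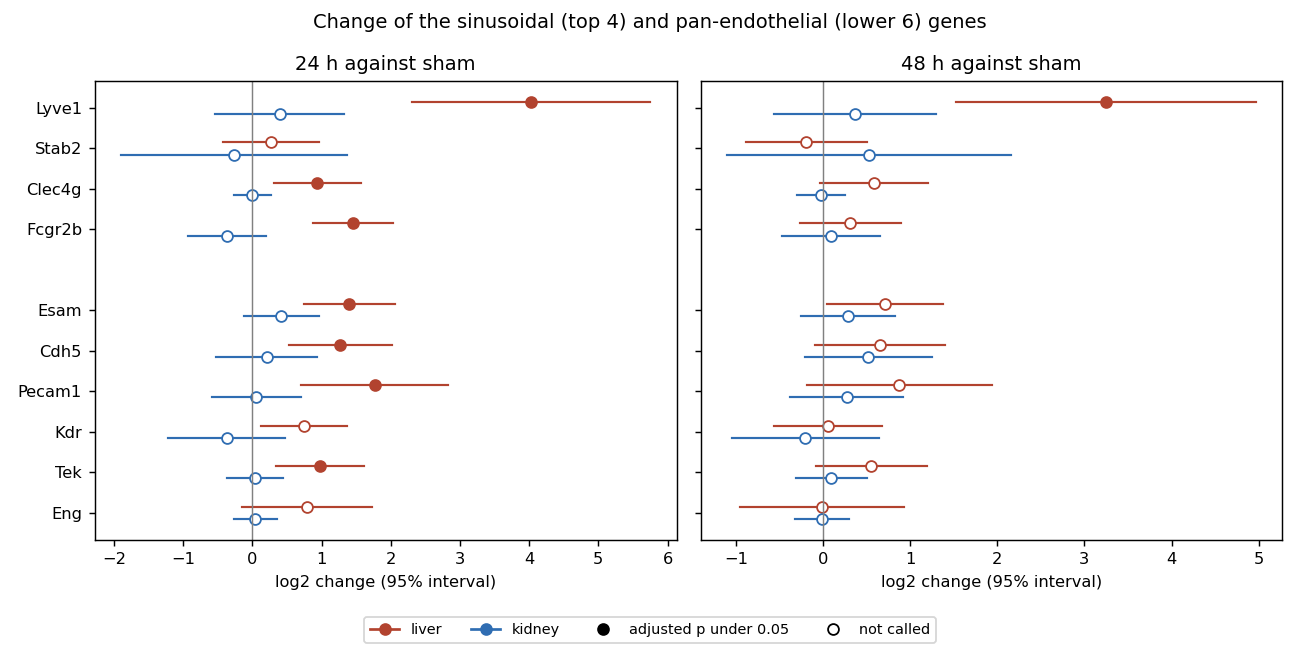
Log2 change against sham (horizontal axis) at 24 h and 48 h for the 10 genes, with points at the fitted change and lines for the 95% interval of limma (n = 3 arrays per group), liver in red and kidney in blue; filled points have an adjusted p under 0.05. At 24 h 7 liver points are filled, at 48 h only Lyve1 in liver is, and no kidney point is filled.

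The sinusoidal genes changed by 0.99 on average at 48 h against sham and the pan-endothelial genes by 0.47. Without Lyve1 the sinusoidal mean was 0.24, below the pan-endothelial mean. Of the other lists, 2 of 16 other sinusoidal genes were called higher at 48 h (Clec1b 2.98-fold and Stab1, a scavenger receptor, 1.98-fold; 0 with the letter block), and 1 of 22 other pan-endothelial genes (Nos3, endothelial nitric oxide synthase, 1.59-fold). The first count was 1 and the second 0 without sham A, B or C or without 48 h A or B. The first was also 1 without 24 h A and the second 0 without 24 h B. Icam1 (4.03-fold) and Vcam1 (2.59-fold) were called among the 6 activation genes, a count of 0 without sham C and of 1 without sham A or B, any single 24 h array, or 48 h B or C. Of 12 macrophage markers 3 were called higher (1 without sham C, 48 h A or 48 h B), and 2 of 6 hepatocyte markers lower (Serpina1c -0.46 and Ttr -0.28; 1 without sham A or 48 h A and 0 without sham B or C). The part of macrophages or hepatocytes in the levels of Lyve1, Clec1b and Stab1 at 48 h was not tested.

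Between 24 h and 48 h in liver all 10 changes were negative, beside a median change of 0 over all genes tested. Fcgr2b was the only gene called lower. Array 24 h C was the highest of its group for all 10 genes. Array 48 h C, with the wide actin gap, was the lowest of its group for 7. The part of RNA integrity in these changes was not tested. Over all genes tested, 13.2% were called lower and 27.8% in either direction. Fcgr2b fell by 1.15 (SE 0.25, adjusted p = 0.0129), from 10.56 to 11.40 at 24 h to 9.59 to 10.09 at 48 h, and kept its call in each fit without 1 array. Its other 3 measurable probe sets read lower by -0.51 to -1.05 and were not called. Kdr was also separated without overlap (-0.69, adjusted p = 0.0972), as were 20.1% of all genes in that direction. Esam (-0.69, adjusted p = 0.114), Eng (-0.81, adjusted p = 0.184), Pecam1 (-0.89, adjusted p = 0.192) and Lyve1 (-0.78, adjusted p = 0.482) overlapped between the times. The sinusoidal and the pan-endothelial genes had mean changes of -0.68 and -0.69. Of 16 other sinusoidal genes Gata4, a transcription factor of sinusoidal identity, was called lower (-1.84; lost without sham A or B, 24 h A or C, or 48 h A), and of 22 other pan-endothelial genes Cd93, Ptprb and Sox18 were (-1.42, -0.94 and -0.69; 5 genes without 24 h B). The hepatocyte markers Serpina1c (-0.51) and Ttr (-0.34) and Reln of the lymphatic list (-0.99) were also called lower. The Reln call was lost in 8 of the 9 fits without 1 liver array, 48 h B being the exception. Which cells lay behind the Reln fall, and the part of other cells in the Fcgr2b fall, was not tested.

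In kidney none of the 10 genes, read from the chosen probe sets, was called in any comparison by limma or by the rank product test. None of these sets had an unadjusted p under 0.05 by limma either. Other Fcgr2b probe sets did pass that unadjusted threshold in kidney, without being called after adjustment. One of them changed by -0.35 at 24 h against sham and by 0.41 from 24 h to 48 h. Another changed by 0.50 from 24 h to 48 h. Over all genes, 5.30% were called at 24 h and 2.77% at 48 h against sham, and 1.62% between the times (23.8%, 19.4% and 18.3% at an unadjusted p under 0.05). Tek and Eng lay well above the lowest value in kidney. Tek read 9.04, 9.10 and 9.41 in sham, 9.32, 8.90 and 9.45 at 24 h and 9.29, 9.44 and 9.10 at 48 h, with changes of 0.04 (95% interval -0.36 to 0.45) and 0.09 (-0.31 to 0.50). Eng changed by 0.04 (-0.27 to 0.35) and -0.01 (-0.32 to 0.30). These intervals are narrow enough to leave out a change of the size that Tek showed in the 24 h liver.

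Esam was the only gene whose 24 h kidneys all lay above sham, at 9.48, 8.63 and 8.69 against 8.54, 8.45 and 8.57 (change 0.42, adjusted p = 0.322), as did 12.7% of all genes. Array A stood highest. Pecam1 changed by 0.06 at 24 h and 0.27 at 48 h, Cdh5 by 0.21 and 0.52, and Kdr by -0.37 and -0.21. The Cdh5 set had the same reading of 4.95 in 4 of the kidneys (sham A and C, 24 h A and B), which limits what its kidney changes can show. Fcgr2b read 9.67, 10.63 and 9.82 at 24 h against 10.41, 10.27 and 10.54 (change -0.37, adjusted p = 0.399) and 10.40, 10.54 and 10.57 at 48 h. Stab2 spread widely, from 3.02 to 5.35 over the 9 kidneys, with an interval of -1.89 to 1.37 at 24 h. Clec4g lay at the floor in all kidneys (2.31 to 2.83), and Lyve1 read 2.59 to 3.86, so neither could show a fall there. Among the other lists, 1 of 14 other sinusoidal genes was called higher at 24 h (Bmp6, 0.88) and 1 lower (Maf, -0.64), and Vegfb (0.76) and Vegfc (-1.11) were called among 22 ligands and partners. Each of these 4 calls was lost without any single sham kidney and without most of the other kidney arrays. The count over all genes at 24 h itself fell from 636 to 15 without kidney sham B. Of 23 other pan-endothelial genes 0 were called at either time, with 5 and 6 at an unadjusted p under 0.05.

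The difference between the organs' responses was tested as kidney change minus liver change in the fit of all 18 arrays. At 24 h it was called lower for 5 of the 10 genes: Lyve1 (-3.63, adjusted p = 0.00498), Fcgr2b (-1.83, adjusted p = 0.00125), Pecam1 (-1.71, adjusted p = 0.0274), Clec4g (-0.94, adjusted p = 0.0323) and Tek (-0.93, adjusted p = 0.0435). Over all genes 17.1% were called in that direction and 31.3% in either. Clec4g and Lyve1 were at or near the floor in kidney, where a smaller response could not be measured. Fcgr2b and Tek were well above it. The Fcgr2b and Lyve1 calls held in each fit without 1 array. Of the 18 fits without 1 array, Clec4g was lost in 9, Pecam1 in 5 and Tek in 14. All 3 calls were lost without liver 24 h A or C, kidney 24 h B or kidney sham C. Cdh5 (-1.06, adjusted p = 0.0919), Kdr (-1.12, adjusted p = 0.0770), Esam (-0.99, adjusted p = 0.0590) and Eng (-0.75, adjusted p = 0.212) had differences of like size and were not called. The second Eng probe set was called lower at both times (-0.95, adjusted p = 0.0255, and -1.01, adjusted p = 0.0395), whereas the chosen set read 0.0017 at 48 h. Stab2 had -0.53 (95% interval -2.18 to 1.12). At 48 h only Lyve1 was called (-2.88, adjusted p = 0.0387, with 8.84% of all genes called lower and 13.4% in either direction), and that call was lost in 9 of the 18 fits without 1 array.

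Across the 6 groups the genes kept different orders. Lyve1, Stab2 and Clec4g had their 3 highest groups in liver, and the lowest liver array lay above the highest kidney array for each. The Stab2 liver groups overlapped one another, whereas Lyve1 was separated between sham and both GalN groups. Pecam1 and Tek had their 3 highest groups in kidney with no overlap with liver. Esam also had its highest means in kidney, but the 24 h livers (7.67 to 8.70) overlapped the sham kidneys (8.45 to 8.57). The 24 h liver was the highest group for Fcgr2b, Cdh5, Kdr and Eng, in each case overlapping a kidney group.

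For each gene called against sham, the nearest genes over the 4 mean changes (liver and kidney at both times against sham) were found among 11190 genes tested in both organs, by root mean square difference on the log2 scale. The nearest to Lyve1 was Ifi204 at 0.47, with changes of 3.21 and 3.66 in liver at 24 h and 48 h. Tek and Clec4g were each other's second nearest at 0.07, after Mrpl50 (0.05) for Tek and Tlr1 (0.06) for Clec4g. Cdh5 was nearest to C1qa at 0.11, Fcgr2b to Pacc1 at 0.07, Esam to Cdkn2aipnl at 0.07 and Pecam1 to Cdc23 at 0.09. No gene lay as close to Lyve1 as these did to their members. The distance is not scaled to the size of a change, and few genes change as much as Lyve1, so this follows in part from the measure. Clec4g lay at the floor in kidney, so its likeness rests on the liver changes. The 4 changes share sham arrays within an organ, so this likeness is a description of 18 arrays.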

How the data were processed

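Liver and kidney RNA was measured on 18 Affymetrix whole-genome mouse arrays. The authors made the deposited log2 values with gcRMA, per the labels (GCRMA in the submitters' processing notes, version not given in the sources used here). Of 45101 probe sets, 34945 named 1 gene, 932 several and 9160 none, with 64 control sets. Names came from the platform annotation, checked through Entrez IDs for 34741 sets. The highest-mean set stood for each of 18193 genes.

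Genes above the array median in at least 3 arrays were tested with limma 3.58.1 in R 4.3.3 (lmFit, eBayes with trend): 9 arrays per organ, or all 18 for differences between organs, with 11655 genes for the response difference and 11950 for sham organs. Benjamini-Hochberg adjustment ran over all genes tested, and adjusted p under 0.05 was called. The scripts were tested on simulated data. The members and lists were chosen with earlier results of these data known. All members were named, and from each list the 4 called genes with the largest change.

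Alternatives were filters, probe set rules, scalings, variance models, arrays in the fit, a letter block and each array left out. Rank product, which the design text names, a filter at a value of 5 and gene means without Lyve1 were added after seeing the data. A fold against a reading within 1 of the lowest value is a lower bound. Readings shared exactly between arrays also occurred far above the lowest value (Eng, 9.37 in liver and kidney arrays). Sharing alone therefore does not show background. Array letters were not taken to pair samples: same-letter deviations correlated at -0.11 to 0.08 in liver, -0.12 to 0.23 in kidney and -0.07 to 0.27 between the organs (different letters between organs -0.26 to 0.07). Between the sham organs the values were 0.24 for letter A, 0.04 for B and 0.27 for C. Liver A with kidney C gave -0.26 and liver C with kidney A -0.24, so pairing of the sham organs is not excluded. With the letter as a block, the same members were called between sham organs. Whether a letter is the same mouse in both organs is not stated in the sources used here.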

Additional observations from a re-analysis of the deposited data

Results flagged for a closer look

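Kidney and liver differed in their response for the genes named below, by the interaction term of limma over all 18 arrays. Over all genes, 17.1% were called lower at 24 h and 8.84% at 48 h. At 24 h the kidney change minus the liver change was -3.63 for Lyve1, -1.83 for Fcgr2b, -1.71 for Pecam1, -0.94 for Clec4g and -0.93 for Tek. At 48 h it was -2.88 for Lyve1. Clec4g in kidney lay within 1 of the lowest value of the table, so its difference is that of the liver alone. Lyve1 in sham kidney also lay within 1 of that value. Of the 18 fits without 1 array, the 24 h call was lost in 14 for Tek, 9 for Clec4g and 5 for Pecam1. The Lyve1 call at 48 h was lost in 9.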

How the results depend on the processing

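None of the 22 called member results changed direction in any alternative run. Of their values, 335 of those without 1 array and 191 of the others kept the call, while 61 and 18 lost it. The 335 include liver comparisons refitted without a kidney array. Those fits used liver arrays only, so their calls could not change. With 1 array left out, 3 to 8 members were called higher in liver at 24 h, 0 to 2 at 48 h, and 1 to 3 lower from 24 h to 48 h. In kidney 0 to 1 was higher from 24 h to 48 h, and the response difference was called lower for 2 to 8 members at 24 h and 0 to 1 at 48 h. Rank product called 1 member, Lyve1, in liver at 24 h and at 48 h, and 0 between the times. No filter gave 0 in liver at 48 h, and 18 arrays in 1 fit gave 2 between the times. The response difference at 24 h was called for 2 members with no filter and 3 with the filter at percentile 60 or median centring. Percentile 60 left Lyve1 and Clec4g untested, and called Fcgr2b, Pecam1 and Tek. At 48 h the response difference was called for 0 with no filter, percentile 60 or a value of 5. The last 2 filters left Lyve1 untested there. The letter block (pairing by letter) called 6 members in liver at 24 h and 4 response differences, losing Tek in both (adjusted p = 0.0718 and 0.0895). Whether a letter marks 1 mouse in both organs is not stated.

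The sinusoidal minus pan-endothelial mean without Lyve1 was -0.27 at 24 h and -0.24 at 48 h in liver. Uncalled changes that turned were, with quantile normalization, Kdr in liver at 48 h (-0.090), Pecam1 in kidney at 24 h (-0.028), Eng in kidney at 48 h (0.045) and Cdh5 between sham organs (0.15). With median centring they were Kdr in liver at 48 h (-0.083), Cdh5 between sham organs (0.027), Clec4g (-0.044), Tek (-0.0022) and Eng (-0.0045) in kidney at 24 h, and Lyve1 (0.0083) and Clec4g (0.012) between kidney times. With the mean of probe sets Eng gave 0.38 in liver at 48 h, -0.10 in kidney at 24 h and -0.51 for the response at 48 h. The cause was not tested.

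Uncalled changes that turned when 1 array was left out had these ranges. In liver at 48 h they were Stab2 -0.35 to 0.037, Kdr -0.019 to 0.19 and Eng -0.29 to 0.41. In kidney at 24 h they were Stab2 -0.88 to 0.16, Clec4g -0.13 to 0.13, Cdh5 -0.032 to 0.33, Pecam1 -0.19 to 0.27, Tek -0.070 to 0.21 and Eng -0.052 to 0.17. In kidney at 48 h they were Stab2 -0.084 to 0.99, Clec4g -0.15 to 0.11, Kdr -0.43 to 0.046 and Eng -0.11 to 0.11. Between kidney times they were Lyve1 -0.37 to 0.34, Clec4g -0.050 to 0.014, Esam -0.28 to 0.14, Cdh5 -0.019 to 0.51, Pecam1 -0.0036 to 0.46, Kdr -0.070 to 0.49, Tek -0.11 to 0.16 and Eng -0.12 to 0.028. The response at 48 h gave Cdh5 -0.46 to 0.060 and Eng -0.43 to 0.28.

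Over all genes, calls at 48 h in liver numbered 1229, 448 without sham B, 605 with the letter block and 2515 with 18 arrays in 1 fit. Kidney calls numbered 636 at 24 h (78 with 6 arrays), 332 at 48 h (29 without sham A) and 194 between times (1 without 48 h A). Median centring moved the share of calls that were higher from 54.5% to 43.8% in liver at 24 h and from 61.4% to 39.6% at 48 h, with median changes of all genes of -0.16 and -0.11. In kidney the share moved from 41.7% to 30.4% (52.0% with quantile normalization) at 24 h and from 47.3% to 36.9% at 48 h. For the response at 48 h it moved from 34.1% to 52.6% (45.6%), and between sham organs it was 52.8% with quantile normalization. Genes near the lowest value, such as Clec4g and Lyve1 in kidney, limit what a fall could show.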
